A study of Mus musculus with 62 samples.

Results

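Metallothioneins and the genes that sense and move zinc were followed in the diaphragm of tumor-bearing mice. The set holds 10 of the 47643 genes of the expression table: the metallothioneins Mt1, Mt2 and Mt3, the zinc sensor Mtf1, the importers Slc39a14, Slc39a8 and Slc39a10, and the exporters Slc30a1, Slc30a2 and Slc30a10. They were listed by name and selected on measured values, the cachectic minus control differences at 8 weeks with Mt2 among the strongest risers, so their 8-week values are a description without a test. The genes were tested in the mice of 2, 4 and 6 weeks, where 9 of the 10 passed the filter on low values and stood among 13578 genes tested. Slc30a10 did not pass.

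Diaphragm RNA of 62 female mice, aged 2 months in the labels, was sequenced with 1 mouse per library. The mice had been injected with cachectic melanoma cells, with non-cachectic melanoma cells, or with no cells as mock injected controls, and tissue was taken 2, 4, 6 or 8 weeks later. Each combination held 5 mice, apart from 7 in the cachectic group at 8 weeks. The series' design text and the study's methods give the hosts as NCI Ath/nude, whereas the strain field of the labels reads C57BL6/J. According to the methods each melanoma was a human xenograft line grown in the flank, so each tumor type is 1 line, and a nude host lacks mature T cells. Controls received no tumor cells, and the labels give no genotype that differs between the groups.

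Metallothioneins are small cysteine-rich proteins that bind zinc and copper in the cytosol and buffer their free level. When free zinc rises, the transcription factor MTF-1 binds metal response elements in their promoters, and in those of some zinc exporters, and raises transcription. Glucocorticoids and IL-6 signaling through STAT3 are also known to raise Mt1 and Mt2, and the importer ZIP14, encoded by Slc39a14, is an acute phase gene of the liver. ZIP proteins (Slc39a) bring zinc into the cytosol, and ZnT proteins (Slc30a) take it out of the cell or into vesicles.

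Levels are TPM, transcript levels scaled by the authors to library size and transcript length, which can be set side by side between genes. Differences are of log2(TPM + 1), a scale that understates the change of low genes, and a gene was called at a limma adjusted p under 0.05 over all genes tested. The skeletal muscle markers, such as Acta1, Ckm and Ttn, were high in all 62 libraries. In 4 libraries few genes were listed above 0, 15069 to 16389 against 17909 to 19057 in the other 58: replicates 3 and 4 of the cachectic and replicate 5 of the non-cachectic mice at 2 weeks, and replicate 3 of the cachectic mice at 8 weeks. Mitochondrial transcripts took 54.4 to 61.5% of TPM in these 4 libraries and 32.5 to 50.1% in the rest. In 5 libraries the mean log2(TPM + 1) of 10 liver markers was 7.35 to 9.99, against at most 6.39 elsewhere: 3 controls (replicates 2, 4 and 5) and 1 cachectic mouse (replicate 1) at 2 weeks, with replicate 5 of the cachectic mice at 6 weeks. Results that rest on these libraries are given with and without them. In whole muscle, fewer cells of a type and less RNA per cell cannot be told apart.

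The promoter windows of Mt1, Mt2 and Slc30a1, all known MTF-1 targets, are shown because the sensor binds in such regions. RefSeq windows on GRCm38.p6, from 250 bases before to 50 bases after a transcript start, were at hand for 9 of the 10 members. The windows are printed with each match to the core of the metal response element, TGCACNC or TGCGCNC on either strand, in capitals.
Mt2, chr8:94172368-94172667, + strand: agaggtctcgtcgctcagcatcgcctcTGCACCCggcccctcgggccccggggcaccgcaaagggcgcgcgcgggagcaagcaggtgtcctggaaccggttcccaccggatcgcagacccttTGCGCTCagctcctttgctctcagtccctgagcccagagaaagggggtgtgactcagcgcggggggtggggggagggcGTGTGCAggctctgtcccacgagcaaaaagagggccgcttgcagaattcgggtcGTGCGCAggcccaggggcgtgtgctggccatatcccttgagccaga
Mt1, chr8:94178839-94179138, + strand: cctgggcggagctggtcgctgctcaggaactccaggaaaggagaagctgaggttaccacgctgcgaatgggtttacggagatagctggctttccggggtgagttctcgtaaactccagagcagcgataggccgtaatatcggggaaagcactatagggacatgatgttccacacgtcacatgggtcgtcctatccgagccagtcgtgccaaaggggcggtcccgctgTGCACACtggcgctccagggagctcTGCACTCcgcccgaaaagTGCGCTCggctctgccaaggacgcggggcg
Slc30a1, chr1:191906531-191906830, + strand: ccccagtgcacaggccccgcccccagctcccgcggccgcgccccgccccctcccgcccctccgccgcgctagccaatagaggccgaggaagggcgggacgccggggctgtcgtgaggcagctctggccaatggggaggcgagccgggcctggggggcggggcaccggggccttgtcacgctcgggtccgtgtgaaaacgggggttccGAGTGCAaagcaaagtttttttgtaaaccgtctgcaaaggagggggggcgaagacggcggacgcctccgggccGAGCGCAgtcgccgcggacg
The core matched 4 times for Mt2, 3 times for Mt1 and 2 times for Slc30a1. Of all 32817 mouse windows, 25.7% held at least 1 match, 7.118% at least 2, 1.968% at least 3 and 0.518% at least 4. In Mt1 the matches lay at positions -23, 2 and 20 from the start, and in Mt2 at -223, -128, -50 and 4. The window of Slc30a2 had 2 matches, but it starts after the annotated gene start at chr4:134343181 and so lies within the gene. Slc30a10 had 3 matches, 2 of which overlap, Mt3 had 1, 1 of the 2 windows of Slc39a8 had 1, and Slc39a10 and Mtf1 had none. The full glucocorticoid response element was found in no window of the members and in 3 of all windows. The STAT element TTCNNNGAA was found in 1 window of Slc39a10 and in 8.294% of all windows. Sites farther than 250 bases before the start were not searched, so neither count shows whether glucocorticoids or STAT3 act on the members.

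Mt2 and Mt1 reached the highest levels of all members in the series, and both were high in every cachectic mouse at 6 weeks. On GRCm38, Mt2 (chr8:94172664-94173568) lies 5513 bases before Mt1 (chr8:94179082-94180327) on the same strand, and Mt3 (chr8:94152607-94154146) lies 18517 bases before Mt2. Mt2 at 6 weeks was 13.8, 7.74, 12.03, 13.1 and 12.97 TPM in the 5 control mice, 17.9, 16.3, 18.9, 24.7 and 14.0 TPM in the 5 non-cachectic mice, and 1176, 289.9, 335, 436 and 321 TPM in the 5 cachectic mice. The lowest cachectic mouse was above the highest mouse of both other groups, and cachectic replicate 1 stood far above the remaining 4. The mean of 511 ± 375 TPM (SD, n = 5) was 42.9 times the control mean and 27.9 times the non-cachectic mean. On the log2(TPM + 1) scale Mt2 rose by 5.11 (SE 0.70, limma adjusted p = 1.72e-06) against control and by 4.53 (SE 0.70, adjusted p = 1.80e-05) against non-cachectic mice.

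Mt1 started from a higher level than Mt2, and its difference was smaller. At 6 weeks it was 73.3, 73.6, 80.3, 97.9 and 81.7 TPM in control mice, 118, 76.2, 79.6, 81.3 and 73.7 TPM in non-cachectic mice, and 1382, 439, 434, 496 and 421 TPM in cachectic mice. The cachectic mice again did not overlap with either group, while the other two groups overlapped. The cachectic mean of 634 ± 419 TPM was 7.80 times that of control and 7.40 times that of non-cachectic mice, with log2 differences of 2.78 (SE 0.45, limma adjusted p = 3.15e-05) and 2.72 (SE 0.45, adjusted p = 5.46e-05). Together the transcripts of Mt1 and Mt2 made up a median of 0.00923% of all TPM in control mice and 0.0769% in cachectic mice at 6 weeks.

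**Figure D1:**
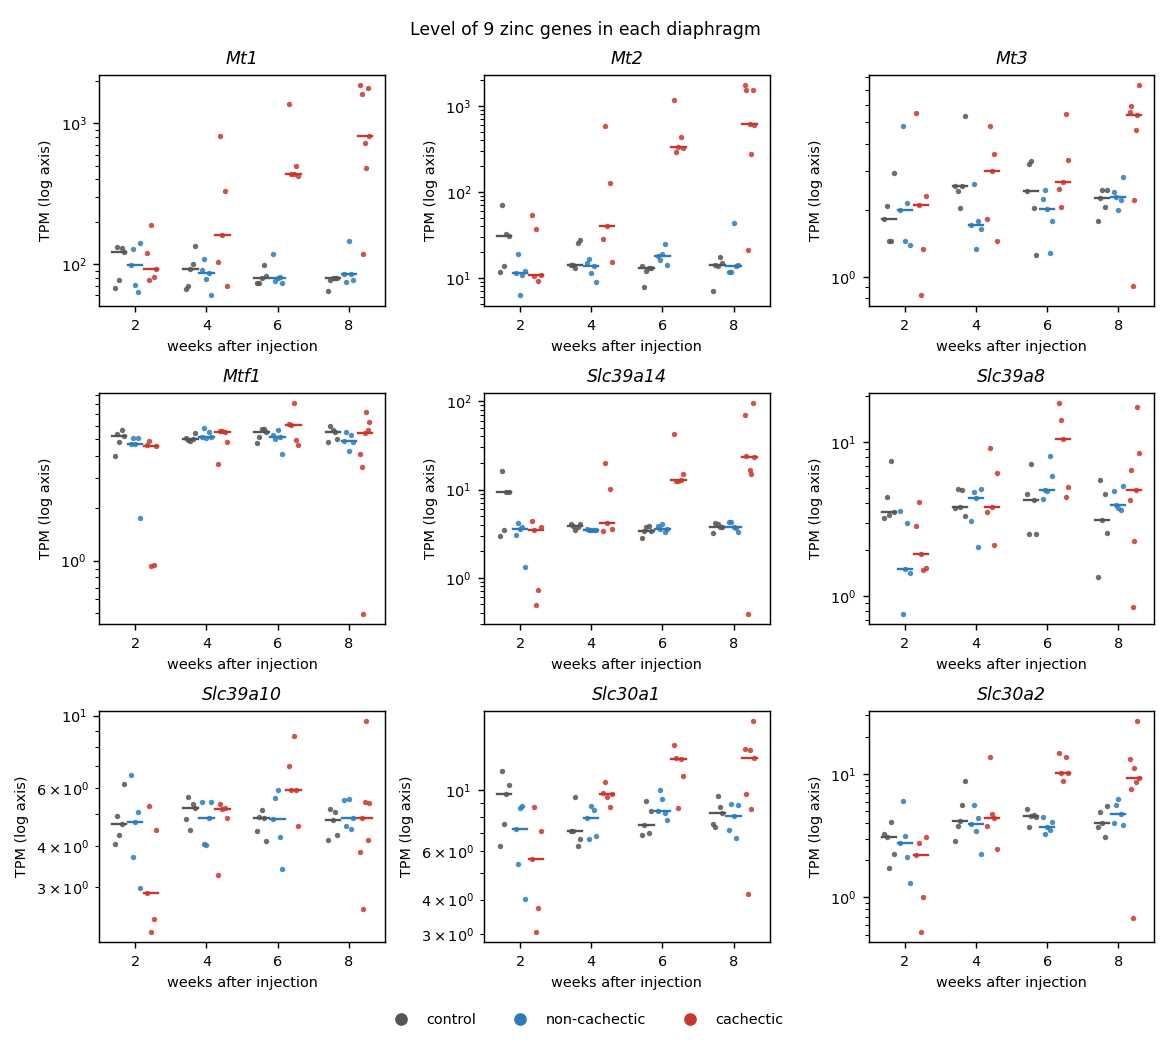
TPM (log axis) of the 9 members that passed the filter in each of the 62 mice, by weeks after injection; points are mice, colors are control (gray), non-cachectic (blue) and cachectic (red) groups, and bars are medians. Mt2 of cachectic mice at 6 weeks lies between 289.9 and 1176 TPM, above the control range of 7.74 to 13.8 TPM, whereas Mtf1 overlaps between the groups.

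Over all members, 4 of the 9 tested were called higher in cachectic than in control mice at 6 weeks and none lower, where 6.79% of all genes tested were called and 5.62% were called higher. The same number, 4 of 9, was called higher against non-cachectic mice, where 5.85% of all genes were called and 4.28% were called higher. In both comparisons Mt1, Mt2, Slc39a14 and Slc30a2 were the genes called, and both use the same cachectic mice. The median difference of the 9 members was 1.04 relative to control and 0.64 relative to non-cachectic mice, beside medians of 0.17 and 0.14 over all genes. The 4 genes called were also those whose cachectic mice lay wholly above the comparison group, as 15.9% of all genes did against control and 13.6% did against non-cachectic mice. Dunn's test on ranks, the study's kind of test, called none of the 13578 genes at 6 weeks at a Benjamini-Hochberg adjusted p under 0.05. By that test the adjusted p of Mt2, Mt1 and Slc39a14 against control was 0.0687 each, with unadjusted p of 0.00052, 0.00289 and 0.00204. The study's methods give a p cutoff together with a log2 ratio cutoff and name no adjustment, so its threshold was unlike this one.

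**Figure D2:**
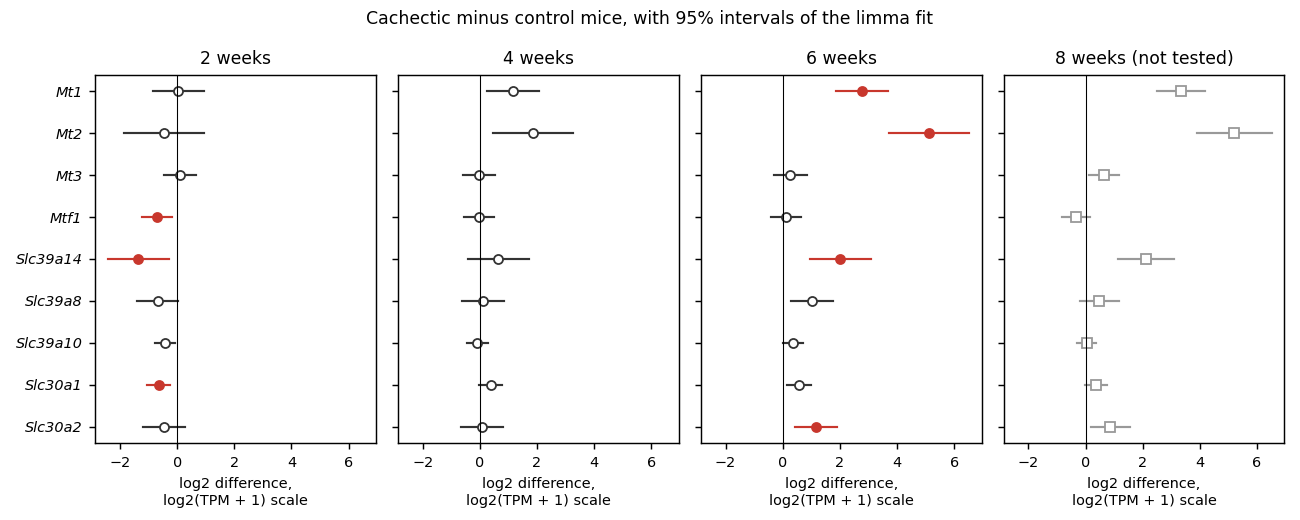
Difference of cachectic minus control mice in log2(TPM + 1) for each member at 2, 4, 6 and 8 weeks, with 95% confidence intervals from limma; filled red points were called, and gray squares at 8 weeks were not tested. At 6 weeks Mt2 (5.11), Mt1 (2.78), Slc39a14 (2.01) and Slc30a2 (1.17) are called, and Mtf1 (0.11) has an interval that spans 0.

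The pair was also compared as the ratio of Mt2 to Mt1 within a mouse, which does not depend on scaling between libraries. This ratio was taken up after the values had been seen and is described without a test. At 6 weeks it was 0.188, 0.105, 0.150, 0.134 and 0.159 in control mice, 0.152, 0.214, 0.237, 0.304 and 0.189 in non-cachectic mice, and 0.851, 0.660, 0.771, 0.879 and 0.763 in cachectic mice. The cachectic ratios averaged 0.785 ± 0.0861 (SD, n = 5) against 0.147 ± 0.0307 in control, and the ranges did not overlap. The ratio also differed between groups without cachexia. At 6 weeks 4 of 5 non-cachectic mice lay above all controls, and at 2 weeks it was 0.0835 to 0.170 in non-cachectic and 0.172 to 0.521 in control mice. The ratio of cachectic mice at 8 weeks was 0.575 to 0.946 in 6 mice and 0.177 in replicate 3, the library with few genes. The longest exact stretch shared by the transcripts was 20 bases between Mt1 and Mt2 and 27 bases between Mt1 and Mt3.

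**Figure D3:**
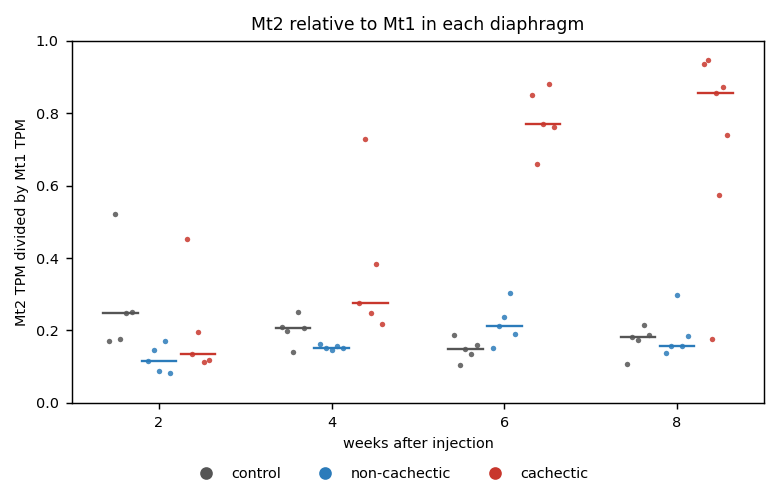
Ratio of Mt2 TPM to Mt1 TPM in each mouse by weeks after injection; points are mice of the control (gray), non-cachectic (blue) and cachectic (red) groups, and bars are medians. At 6 weeks the 5 cachectic mice lie between 0.660 and 0.879 and the 5 control mice between 0.105 and 0.188.

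At 4 weeks the cachectic mice were divided in Mt2, Mt1 and Slc39a14. Mt2 was 28.6, 587, 39.9, 128 and 15.2 TPM in cachectic mice, against 14.1, 14.0, 12.9, 25.2 and 27.7 TPM in control and 14.7, 16.7, 11.4, 13.6 and 8.997 TPM in non-cachectic mice. Mt1 was 104, 806, 160.1, 332 and 69.8 TPM in the same cachectic mice, and 67.0 to 134 TPM in controls. Replicates 2 and 4 were high for both genes, at 31.3 and 6.80 times the control mean for Mt2 and at 8.70 and 3.59 times for Mt1, and replicate 5 was within the control range for both. Slc39a14 was 19.995 and 10.1 TPM in replicates 2 and 4 and 3.42 to 4.2005 TPM in the other 3 cachectic mice, where controls had 3.51 to 4.07 TPM. Slc30a2 was 13.8 TPM in replicate 2 and 2.49 to 4.75 TPM in the others, with controls at 2.85 to 8.79 TPM. The same 2 mice had the highest means of the IL-6 and STAT3 list among cachectic mice (4.19 and 3.98, against 3.06 to 3.50 in the other 3 and 2.72 to 2.87 in controls) on the log2 scale. They were also the highest cachectic mice in the mean of the glucocorticoid list (6.09 and 5.18, against 4.05 to 4.77), although replicate 4 lay within the control range of 3.83 to 5.25.

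No member was called at 4 weeks. Against control, where 0.0221% of all genes were called, limma called 0 of 9 members, 2 had an unadjusted p under 0.05, and Dunn's test called 0. The differences were 1.86 for Mt2 (SE 0.70, limma adjusted p = 0.627) and 1.14 for Mt1 (SE 0.45, adjusted p = 0.658), and without cachectic replicate 2 they were 1.08 and 0.64. Against non-cachectic mice, with 0.0295% of all genes called, limma and Dunn's test called 0 of 9 members and 2 had an unadjusted p under 0.05, with a difference of 2.31 for Mt2 (adjusted p = 0.337) and 1.25 for Mt1 (adjusted p = 0.614), which became 1.53 and 0.74 without cachectic replicate 2. The change of the cachectic minus control difference from 4 to 6 weeks was 3.25 for Mt2 (SE 0.99, adjusted p = 0.778) and 1.63 for Mt1 (SE 0.64, adjusted p = 1.00). For that change limma called 0 of 9 members and 0% of all genes, with 3 members (Mt2, Mt1 and Slc30a2) at an unadjusted p under 0.05. Dunn's test was not run on it.

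**Figure D4:**
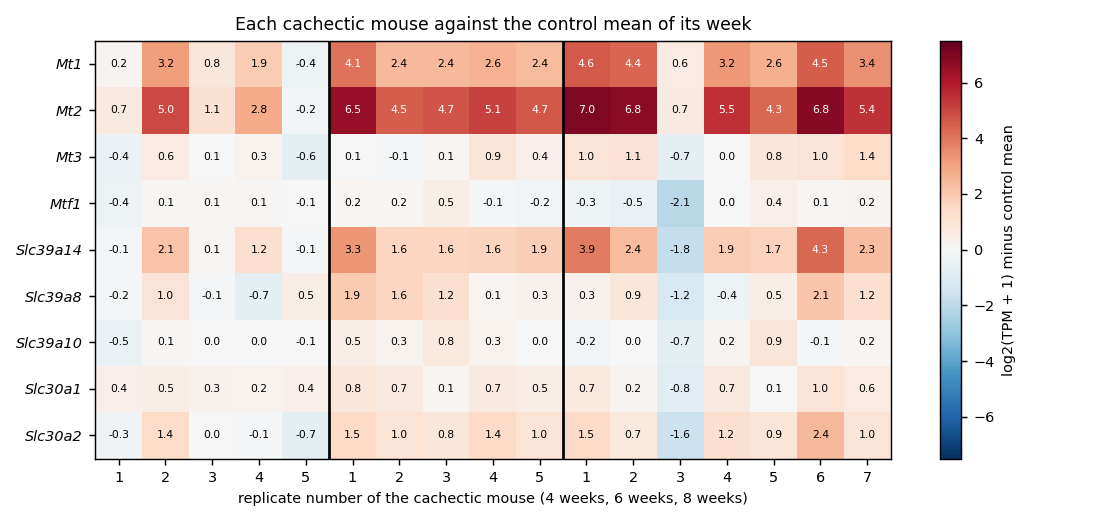
Heat map of log2(TPM + 1) in each of the 17 cachectic mice of 4, 6 and 8 weeks minus the control mean of the same week, with members in rows and mice in columns; red is above and blue below control. Replicates 2 and 4 at 4 weeks are high in Mt1, Mt2 and Slc39a14, and replicate 3 at 8 weeks is low in most members.

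At 8 weeks, the comparison in view when the genes were listed, Mt2 of the 7 cachectic mice had a lowest value of 20.9, a median of 622 and a highest of 1749.9 TPM. Controls had 6.96, 14.0, 13.9, 17.3 and 15.0 TPM, and non-cachectic mice 11.8, 11.8, 43.2, 13.5 and 14.2 TPM. Mt1 of cachectic mice ranged from 118 over a median of 814 to 1868 TPM, with controls at 64.8 to 80.3 TPM. Cachectic replicate 3 was the lowest for both genes and close to the controls, and a non-cachectic mouse (replicate 3, 43.2 TPM Mt2) lay above it. As descriptions, the log2 differences from control were 5.21 for Mt2, 3.34 for Mt1, 2.11 for Slc39a14, 0.87 for Slc30a2, 0.66 for Mt3, 0.49 for Slc39a8, 0.36 for Slc30a1, 0.04 for Slc39a10 and -0.33 for Mtf1, with a median of 0.66 over the members and -0.09 over all genes.

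At 2 weeks Mt1 and Mt2 did not separate the groups. Mt2 was 54.4, 10.4, 37.2, 9.14 and 10.8 TPM in cachectic mice and 11.7, 69.4, 13.5, 32.6 and 30.9 TPM in controls. The 3 controls with high liver markers were the 3 with the most Mt2, and they were also the 3 with the most Slc39a14 (16.3, 9.28 and 9.46 TPM, against 2.97 and 3.49 TPM in the remaining pair). The part of liver transcripts in these levels was not tested. Against control, 3 members were called lower, Mtf1 (-0.69, limma adjusted p = 0.0424), Slc39a14 (-1.36, adjusted p = 0.0478) and Slc30a1 (-0.65, adjusted p = 0.0209), where 29.3% of all genes were called and the median of all genes was -0.42. Without the libraries with few genes the same differences were -0.07, -0.72 and -0.30 (adjusted p = 0.870, 0.428 and 0.386), and without those high in liver markers they were -0.69, -0.63 and -0.34 (adjusted p = 0.273, 0.520 and 0.385), so that 0 members were called in either case.

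Leaving out cachectic replicate 3 or 4, or control replicate 2 or 5, also left 0 members called at 2 weeks, and leaving out control replicate 4 left 1. Against non-cachectic mice at 2 weeks, limma called 0 of 9 members and 0% of all genes, with 0 members at an unadjusted p under 0.05, and Dunn's test called 0. Non-cachectic and control mice at 2 weeks differed in 4.43% of all genes and in 0 of 9 members, with 1 member (Slc39a8) at an unadjusted p under 0.05 and 0 by Dunn's test.

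Mice with the tumor that causes no cachexia had no called difference from control in these genes. At 4 and at 6 weeks limma called 0 of 9 members and 0% of all genes between non-cachectic and control mice, with 0 members at an unadjusted limma p under 0.05 and 0 by Dunn's test. Mt2 at 6 weeks was the 1 member whose non-cachectic mice (14.0 to 24.7 TPM) lay wholly above control (at most 13.8 TPM), a pattern seen in 0.368% of all genes, with a log2 difference of 0.58 (limma adjusted p = 1.00). The limma SE of 0.70 came from a spread shared by all conditions, cachectic mice included. The SD was 4.01 TPM in these non-cachectic and 2.42 TPM in these control mice. An exact permutation test gave an unadjusted p = 0.00794, so the limma value does not show that Mt2 was equal in these groups.

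Mt3, the metallothionein best known from neurons, stayed low, between 0.823 and 7.37 TPM in the 62 mice. At 6 weeks it was 2.51, 2.08, 2.69, 5.46 and 3.36 TPM in cachectic mice and 2.45, 3.25, 3.33, 2.05 and 1.26 TPM in controls, and the groups overlapped (difference 0.27, SE 0.28, limma adjusted p = 0.640). Mt4, a metallothionein of stratified epithelia that is no member, reached 1 TPM in 1 of the 62 mice.

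Mtf1 encodes MTF-1, the sensor that acts through the elements shown above, and its transcript level did not separate the groups. At 6 weeks it was 6.13, 6.09, 8.09, 4.97 and 4.62 TPM in cachectic, 4.74, 5.20, 5.75, 5.71 and 5.52 TPM in control and 5.29, 5.00, 5.69, 5.18 and 4.12 TPM in non-cachectic mice. The difference from control was 0.11 (95% confidence interval -0.41 to 0.64, limma adjusted p = 0.850), and it was -0.05 after median-ratio scaling. Over the 62 mice Pearson's r of Mt2 with Mtf1 was 0.16 (0.39 within groups, from deviations from the group means), and that of Mt2 with Mt1 was 0.98 (0.94 within groups). These correlations describe mice that share groups and libraries, and they are given without a test.

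Among the importers, Slc39a14 (chr14:70303469-70351425), whose product ZIP14 carries zinc and non-transferrin-bound iron and manganese, rose in cachectic mice. At 6 weeks it was 43.1, 12.4, 12.6, 12.8 and 15.1 TPM in cachectic mice, 2.80, 3.36, 3.74, 3.88 and 3.38 TPM in controls and 3.899, 3.57, 4.12, 3.33 and 3.59 TPM in non-cachectic mice. Every cachectic mouse was above all mice of the other groups, with replicate 1 again the highest. The mean of 19.2 ± 13.4 TPM was 5.59 times that of control and 5.19 times that of non-cachectic mice (differences 2.01, SE 0.53, limma adjusted p = 0.0118, and 1.92, SE 0.53, adjusted p = 0.0184). Without cachectic replicate 1 the differences were 1.68 (adjusted p = 0.0840) and 1.60 (adjusted p = 0.117), and Slc39a14 was no longer called. At 8 weeks 6 of 7 cachectic mice, at 14.9 to 95.5 TPM, were above the controls (3.19 to 4.22 TPM), and replicate 3 had 0.393 TPM.

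Slc39a8, which encodes ZIP8, a close relative of ZIP14, was 17.9, 14.0, 10.4, 4.43 and 5.15 TPM in cachectic and 4.62, 2.53, 7.22, 4.23 and 2.51 TPM in control mice at 6 weeks. The first 3 cachectic mice were above all controls and the other 2 were within the control range, and the difference of 1.04 (SE 0.37, limma adjusted p = 0.0754) was not called. It was called without the libraries with few genes (adjusted p = 0.0170) or with high liver markers (adjusted p = 0.0403). None of the libraries with few genes is from 6 weeks. Leaving them out kept the 6-week values and changed the spread that the fit shares over all conditions. Slc39a10, which encodes ZIP10, an importer of the plasma membrane, was 4.61 to 8.65 TPM in cachectic and 4.15 to 5.16 TPM in control mice, in overlapping ranges and with a difference of 0.36 (SE 0.18, adjusted p = 0.243).

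Among the exporters, Slc30a2 (chr4:134343181-134354484) rose. It encodes ZnT2, which loads zinc into vesicles and is known from secretory epithelia. At 6 weeks it was 14.7, 10.2, 8.84, 13.9 and 10.2 TPM in cachectic mice, 5.22, 3.76, 4.55, 4.64 and 4.47 TPM in controls and 4.47, 3.28, 3.72, 3.52 and 4.13 TPM in non-cachectic mice. The cachectic group did not overlap with the others, and its mean of 11.6 ± 2.57 TPM was 2.56 times that of control and 3.03 times that of non-cachectic mice. The differences were 1.17 (SE 0.37, limma adjusted p = 0.0406) and 1.36 (SE 0.37, adjusted p = 0.0157).

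The call of Slc30a2 against control was close to the threshold. It was lost when cachectic replicate 1, 2 or 4 or any of the 5 controls was left out (adjusted p = 0.0567 to 0.133), and without the libraries high in liver markers (adjusted p = 0.0514). Against non-cachectic mice it was lost without cachectic replicate 1 (adjusted p = 0.0640). At 8 weeks 6 of 7 cachectic mice (7.63 to 26.9 TPM) were above the controls (3.11 to 5.495 TPM), and replicate 3 had 0.676 TPM.

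Slc30a1 encodes ZnT1, the main zinc exporter of the plasma membrane and a known MTF-1 target. It was 14.6, 13.1, 8.60, 12.9 and 11.2 TPM in cachectic and 6.84, 7.49, 9.10, 6.96 and 8.36 TPM in control mice at 6 weeks. All but replicate 3 of the cachectic mice were above every control, and the difference of 0.57 (SE 0.21, limma adjusted p = 0.0834) was not called. It was called after median-ratio scaling (0.39, adjusted p = 0.0439) and without the libraries with few genes (adjusted p = 0.00212). The latter fit kept the 6-week values, since none of those libraries is from 6 weeks, and changed the shared spread. Slc30a10, which encodes ZnT10, a manganese exporter of liver and brain, reached 1 TPM in 1 mouse, control replicate 2 at 2 weeks (3.06 TPM), the library with the highest mean of liver markers, and was at 0 in 5 mice.

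By level, the members kept a wide order in control mice at 6 weeks. The medians were 80.3 TPM for Mt1, 12.97 for Mt2, 7.49 for Slc30a1, 5.52 for Mtf1, 4.86 for Slc39a10, 4.55 for Slc30a2, 4.23 for Slc39a8, 3.38 for Slc39a14, 2.45 for Mt3 and 0.0271 for Slc30a10. Mt1 was apart from Mt2, Slc30a1 from Mtf1 and Mt3 from Slc30a10 without overlap between mice, and the other neighbors in this order overlapped. In cachectic mice at 6 weeks the medians of Mt1 (439 TPM) and Mt2 (335 TPM) overlapped in range, and Slc39a14 (12.8 TPM) had moved up beside Slc30a1 (12.9 TPM).

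Scaling between libraries shifted all genes but kept the order of the members called. The median of all genes against control at 6 weeks was 0.17 as deposited and 0.01 after median-ratio scaling, and calls over all genes went from 763 higher and 159 lower to 467 higher and 545 lower, or to 530 higher and 729 lower after quantile normalization. After median-ratio scaling Mt2 differed from control by 4.91, Mt1 by 2.58, Slc39a14 by 1.82 and Slc30a2 by 0.99, and all 4 were called.

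Beside the members, 18 other ZIP and ZnT genes were in the table, of which 13 were tested. At 6 weeks limma called 0 of them against control, where 6.79% of all genes were called, with 4 at an unadjusted p under 0.05 and 0 by Dunn's test. The count was 4 in a fit of only the groups compared, 6 with array weights and 5 without the libraries with few genes. None of those libraries is from 6 weeks, so the 6-week values stayed and the shared spread changed. The differences of the 13 genes ranged from -0.11 (Slc39a3) to 0.52 (Slc30a4, adjusted p = 0.0829), with a median of 0.16 beside 0.17 for all genes. The 13 genes were left after the members had been selected on the 8-week differences, so their 8-week count is a description. At 8 weeks, where 14.8% of all genes were called, 1 of the 13 was called, the mitochondrial transporter gene Slc30a9. It was at 18.6 ± 3.88 TPM in 7 cachectic and 23.6 ± 1.26 TPM in 5 control mice (-0.35, SE 0.12, limma adjusted p = 0.0319). Leaving out cachectic replicate 3, the library with few genes, gave -0.24 (adjusted p = 0.104), and the call was also lost without cachectic replicate 1 or control replicate 2 or 4 (adjusted p = 0.0510, 0.0717 and 0.0831). It was called (adjusted p = 0.000477) when all 4 libraries with few genes were left out.

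**Figure D5:**
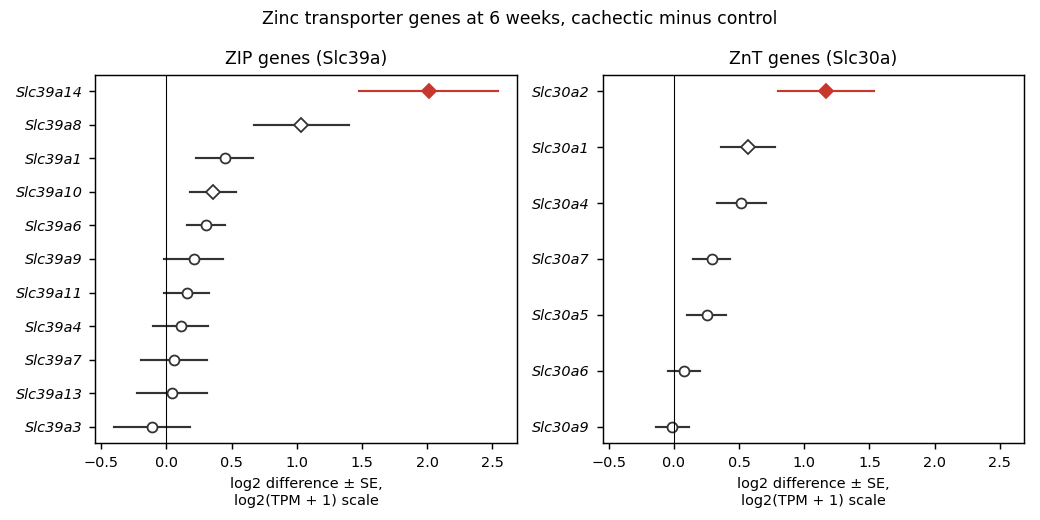
Difference of cachectic minus control mice in log2(TPM + 1) at 6 weeks for the ZIP and ZnT genes tested, with standard errors from limma; diamonds are members and red marks genes called. Slc39a14 (2.01) and Slc30a2 (1.17) are called, and the 13 other genes lie between -0.11 and 0.52.

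Other known MTF-1 targets were counted to set the metallothioneins beside their regulator's wider set. Of the 6 tested, 1 was called at 6 weeks against control, beside 6.79% of all genes. It was Pgf, which encodes placental growth factor, at 9.49 ± 3.88 TPM in cachectic and 4.35 ± 0.761 TPM in control mice (0.91, SE 0.27, limma adjusted p = 0.0253). Its call was lost without cachectic replicate 1 (0.72, adjusted p = 0.158) or replicate 4 and without control replicate 1 or 4 (adjusted p = 0.0561, 0.0643 and 0.0675). Against non-cachectic mice 0 of the 6 were called.

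Copper, which metallothioneins also bind, is handled by a separate set of genes, and 2 of 11 tested were called higher at 6 weeks, beside 5.62% of all genes. These were Cp, which encodes the copper-carrying ferroxidase ceruloplasmin, at 26.0 ± 4.61 TPM in cachectic against 10.6 ± 1.72 TPM in control mice (1.21, SE 0.27, limma adjusted p = 0.00296), and Steap4, which encodes a metalloreductase, at 45.8 ± 3.56 against 20.6 ± 2.58 TPM (1.12, SE 0.18, adjusted p = 2.45e-05). Both were also called against non-cachectic mice (adjusted p = 0.00527 and 0.000125).

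Lists of genes known to respond to glucocorticoids or to IL-6 and STAT3 were counted beside the metallothioneins, since both signals are known to act on them. The lists were chosen with earlier results of these data known, so their counts are a description and no independent test. At 6 weeks 5.62% of all genes tested were called higher against control, and the median difference of all genes was 0.17. Of 12 glucocorticoid-responsive genes 4 were called higher, Lcn2 (3.205), Fkbp5 (2.50), Errfi1 (1.42) and Sult1a1 (1.22), with a list median of 0.88. Of the IL-6 and STAT3 list 9 of 12 were called higher, with a median of 1.31, led by Socs3 (2.85), the feedback inhibitor of STAT3 signaling, Junb (1.84) and Osmr (1.75), the oncostatin M receptor. Against non-cachectic mice the counts were 4 of 12 and 6 of 12, beside 4.28% of all genes called higher. None of these genes was called lower.

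Over the 62 mice, Mt2 had a Pearson's r of 0.91 with the mean of the IL-6 and STAT3 list and of 0.82 with that of the glucocorticoid list, and of 0.80 with each when deviations from the group means were used. Slc39a14 had an r of 0.93 with the IL-6 and STAT3 list and 0.90 within groups, and Mt2 and Slc39a14 had 0.88 with each other and 0.80 within groups. Within groups, the r with the mean of 10 skeletal muscle markers was 0.69 for Slc39a14 and 0.43 for Mt2. Mtf1, which was not called at 6 weeks, had 0.77 within groups with the IL-6 and STAT3 list. These values describe the same 62 libraries, and no test was made. The part of library quality in them was not tested. The genes outside the set most like Mt2 by r of log2(TPM + 1) over the 62 mice were Serpina3n (0.97), Lcn2 (0.96), Tmem252 (0.96), Serpina3e-ps (0.94) and Atp6v1h (0.94), and among those most like Slc39a14 were Zpr1 (0.93), Cd164 (0.92), Lrg1 (0.92) and Clcc1 (0.91). Lcn2, which is also in the glucocorticoid list, encodes the siderophore-binding protein lipocalin 2. Lrg1 encodes a secreted acute phase glycoprotein and Atp6v1h a subunit of the vesicular proton pump.

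Markers of other cells were set beside the 6-week results. Against control, limma called 6.79% of all genes tested, and 5.62% were called higher. Of 10 liver markers 0 were called, and their summed level was 14.0 to 5083 TPM in cachectic and 13.8 to 369 TPM in control mice. The mouse with the highest sum, cachectic replicate 5, had 321 TPM of Mt2 and 15.1 TPM of Slc39a14, within the range of the other 4 cachectic mice, and Mt1, Mt2 and Slc39a14 were called without it. The summed level of 6 neutrophil markers was 15.3 to 30.1 TPM in cachectic mice, 3.56 to 11.5 TPM in controls and 1.98 to 14.6 TPM in non-cachectic mice, without overlap, and of the 3 that were tested 0 were called. Of 7 macrophage markers 2 were called higher, Mrc1 (1.23) and C1qb (0.98), with sums of 314.9 to 672 TPM in cachectic and 302 to 815 TPM in control mice. Mitochondrial transcripts took 34.3 to 44.90% of TPM in cachectic, 44.92 to 47.9% in control and 43.2 to 47.9% in non-cachectic mice at 6 weeks. None of the liver, neutrophil and macrophage markers was at 0 in a whole group of 6 weeks. The part of these cells and of the mitochondrial share in the levels of the members was not tested.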

How the data were processed

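Diaphragm RNA of 62 mice was sequenced by the authors, who trimmed paired-end reads, aligned them to GRCm38 (mm10) in CLC Genomics Workbench and deposited TPM values per gene. The labels name a stranded mRNA kit and the methods another TruSeq kit, so whether strand was kept is not settled. No counts were used, the depth of each library is unknown, and all 62 libraries differed from each other. Groups and replicate numbers came from the labels. Genes that reached 1 TPM in 5 or more mice were tested on log2(TPM + 1) with limma 3.58.1 in R 4.3.3, with 1 mean for each condition, a trended variance and Benjamini-Hochberg adjustment over 13578 genes in each comparison. Exact permutation tests used scipy 1.17.1. On simulated data, with independent normal noise and a log2 change of 2 in the cachectic mice of 6 weeks, the fit recovered 192 of 200 changed genes with 11 false calls. The simulation held no libraries with few genes and no spread that differed between groups. It therefore does not show how the fit deals with these or with smaller changes. Alternatives were another pseudocount, no filter, other scalings, array weights, a replicate block, liver markers as a covariate, left-out libraries and Dunn's test on ranks, which the study used. The members and lists were chosen with earlier results of these data known, so counts over the lists are descriptions and no independent test. Named genes were the members, genes of the metal lists called at 6 weeks, the 5 most correlated genes of Mt2 and of Slc39a14 (1 of them is not reported here), and the leading genes of the other lists. Adipocyte, endothelial, fibroblast and mesothelial marker lists had 0 of 6, 0 of 5, 1 of 5 and 0 of 5 genes called higher at 6 weeks against control, beside 5.62% of all genes.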

Additional observations from a re-analysis of the deposited data

Results flagged for a closer look

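Within each group of 5 or 7 mice, each member was searched for a single mouse whose distance to the nearest other mouse took up most of the group's range on the log2(TPM + 1) scale. This singled out 15 of 108 sets of values, where chance gives about 1 in 20 for independent, normal sets. The sets share mice and hold correlated genes, so the count cannot show an excess over chance. Cachectic replicate 3 at 8 weeks, 1 of the libraries with few genes, was the lowest for 4 members: Mt2 (20.9 TPM, next 275), Mtf1 (0.496 TPM, next 3.45), Slc39a14 (0.393 TPM, next 14.9) and Slc30a2 (0.676 TPM, next 7.63). Cachectic replicate 1 at 6 weeks was the highest for Mt1 (1382 TPM, next 496) and Slc39a14 (43.1 TPM, next 15.1).

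Among mice without cachexia, non-cachectic replicate 3 at 8 weeks was the highest for Mt1 (145 TPM, next 85.6) and Mt2 (43.2 TPM, next 14.2), and control replicate 1 at 8 weeks was the lowest for both (64.8 TPM of Mt1, next 76.6, and 6.96 TPM of Mt2, next 13.9). Single values stood apart for Mt1 in non-cachectic replicate 1 at 6 weeks (118 TPM, next 81.3), for Mt2 in control replicate 2 at 6 weeks (7.74 TPM, next 12.03) and for Mt3 in control replicate 5 at 4 weeks (5.33 TPM, next 2.58). The same held for Mtf1 in non-cachectic replicate 5 at 2 weeks, a library with few genes (1.77 TPM, next 4.67), and for Slc39a10 in cachectic replicate 1 at 4 weeks (3.26 TPM, next 4.88).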

How the results depend on the processing

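The 3 members called at 2 weeks against control became 0 after median-ratio scaling or quantile normalization, with array weights, in a fit of only the groups compared, with liver markers as a covariate, without the libraries with few genes, without those high in liver markers and by Dunn's test, and 1 with a log2 difference over 1. At 6 weeks the 4 members called became 7 with array weights and 0 by Dunn's test, against control and against non-cachectic mice alike. Where 0 members were called, array weights gave 3 for non-cachectic against control mice at 2 weeks, 1 and 2 for cachectic against control and non-cachectic mice at 4 weeks, and 5 for the change from 4 to 6 weeks. Leaving out the filter gave 1 for non-cachectic against control mice at 2 weeks, and leaving out the libraries with few genes gave 1 for cachectic against non-cachectic mice at 4 weeks. Of the other zinc transporters, 0 called at 6 weeks became 1 with median-ratio scaling, 6 with array weights, 4 with only the groups compared and 5 without the libraries with few genes. None of the libraries with few genes is from 4 or 6 weeks. Leaving them out thus kept the values of these weeks and changed the spread shared by all conditions. Apart from this, causes of the shifts were not tested.

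Leaving out 1 mouse at a time gave 0 to 4 members at 2 weeks against control, 2 to 5 at 6 weeks against control, and 2 to 4 at 6 weeks against non-cachectic mice. Mt1 and Mt2 were called in every such fit at 6 weeks. The labels name no pairs of mice, and the main fit did not use replicate numbers as pairs. Correlations of deviations between same-numbered mice ran from -0.63 to 0.39, with 18 of 60 over 0.1, and this count alone cannot settle pairing. With the replicate block 4 members were called at 6 weeks against control, while calls over all genes went from 763 higher and 159 lower to 539 and 114. No called direction turned. The unknown depth limits Slc30a10, Mt3 and other low genes most, and with 5 mice a group an exact test cannot go below p = 0.00794.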
